A study of Mus musculus with 6 samples.

Results

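The SR proteins and the heterogeneous nuclear ribonucleoproteins (hnRNPs) are the main families of RNA-binding proteins that set which exons are kept in a messenger RNA. Their genes were taken from the deposited expression table by symbol, namely every *Srsf* and *Hnrnp* or *Hnrp* gene, *Tra2a*, *Tra2b*, *Srrm1*, *Srrm2* and *Son*, with processed pseudogenes left out. This gave 36 genes of 23420, of which 35 had enough counts for testing. Only *Srsf12* did not, with 4 and 4 counts under *Dyrk1a* shRNA, 11 and 6 under harmine and 1 and 1 in control cells.

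RNAseq was performed on polyadenylated RNA of CD4+CD62L+ T cells from spleens of Balb/c mice 12 weeks old, in 6 libraries. All cells were stimulated on plates with antibodies to CD3 and CD28 for 24 h, transduced with shRNA, given medium with IL-2 after another 24 h, and harvested 48 h later. The IL-2 stands in the sample labels, whereas the study's methods describe unpolarised (Th0) cultures as fed without it, so whether IL-2 was present is uncertain. The 3 groups of 2 libraries were cells with shRNA against *Dyrk1a*, cells with scrambled (control) shRNA and 3.7 µM harmine, and cells with control shRNA alone. DYRK1A is a kinase found in nuclear speckles. By the study's account, the targets of harmine include DYRK kinases, CDC-like kinases (CLKs) and monoamine oxidase A. No source used here says whether the replicates came from separate animals or cultures, so p-values measure only the spread between these libraries. The i5 index of the libraries was the same within each group and differed between groups, so an effect of the index and of the treatment cannot be told apart.

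SR proteins bind exons through RNA recognition motifs and recruit the splicing machinery through a domain rich in arginine and serine, which CLK, SRPK and DYRK kinases phosphorylate. hnRNPs often act against them, by covering exons or looping them out. Many of these genes control their own level by splicing in an exon with an early stop codon, so that the transcript is degraded, and in T cells hnRNP L and its relative hnRNP LL repress the variable exons of *Ptprc* (CD45) after activation. The values here are counts per gene, which measure neither splicing nor phosphorylation.

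The libraries held 2678872 and 3274050 counts with *Dyrk1a* shRNA, 3441063 and 3747648 with harmine and 1743428 and 1096345 in the control group, so the control libraries were the smallest. Levels are given as CPM, counts relative to a library size that was scaled by the trimmed mean of M-values (TMM), unless library totals are named. *Dyrk1a* itself was at 60.2 and 61.9 CPM with *Dyrk1a* shRNA, 74.8 and 77.6 with harmine and 58.4 and 82.7 in the control libraries. The targeted transcript was thus not below both control libraries (log2 fold change -0.19, Benjamini-Hochberg adjusted p = 0.835 by the quasi-likelihood test of edgeR), and the group is called by its label. The 8 markers of CD4 T cells summed to 2503 to 2781 CPM over the 6 libraries, while 7 B cell markers summed to 18.2 to 28.9 CPM and 7 myeloid markers to 16.2 to 32.6 CPM. Erythroid and platelet markers summed to 30.1 CPM in control replicate 1 and to 10.3 to 15.6 CPM elsewhere, and their part in the results was not tested. In such bulk RNA, fewer cells of a type and less RNA per cell cannot be told apart.

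The promoters of 34 of the 36 genes were found in RefSeq (GRCm38.p6), from 250 bases before to 50 bases after the start. Their median GC content was 65.2%, against 52.7% for all 27025 promoters. The stretches below lie before the start of 5 genes whose transcripts were among the lowest with *Dyrk1a* shRNA relative to harmine, and capitals mark matches to the 6 motifs that were searched on both strands and are spelled out after the sequences. *Srsf3* lies at chr17:29032569-29032627 on the plus strand, *Hnrnpa2b1* at chr6:51469895-51470014 on the minus strand, *Srsf7* at chr17:80207308-80207425 on the minus strand, *Tra2b* at chr16:22266006-22266125 on the minus strand and *Hnrnpa3* at chr2:75659139-75659243 on the plus strand.
Srsf3: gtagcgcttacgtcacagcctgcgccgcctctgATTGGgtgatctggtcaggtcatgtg
Hnrnpa2b1: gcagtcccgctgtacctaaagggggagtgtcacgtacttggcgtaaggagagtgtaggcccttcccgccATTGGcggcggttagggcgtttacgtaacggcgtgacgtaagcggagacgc
Srsf7: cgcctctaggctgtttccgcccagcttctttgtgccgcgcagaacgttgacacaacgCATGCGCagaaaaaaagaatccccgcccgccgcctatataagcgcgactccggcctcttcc
Tra2b: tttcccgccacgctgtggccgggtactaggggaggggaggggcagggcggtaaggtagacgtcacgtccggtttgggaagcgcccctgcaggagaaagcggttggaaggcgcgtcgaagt
Hnrnpa3: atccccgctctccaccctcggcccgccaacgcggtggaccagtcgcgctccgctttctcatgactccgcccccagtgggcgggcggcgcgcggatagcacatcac

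The CCAAT box, the site of the factor NF-Y, was found in 19 of the 34 promoters (55.9%), against 37.9% of all promoters. It reads ATTGG on the other strand in the stretches of *Srsf3* and *Hnrnpa2b1*. The motif CCGGAAG, read by ETS factors, was in 6 promoters (17.6% against 9.12%), the E-box CACGTG in 4 (11.8% against 7.24%), the NRF1-type motif GCGCATG, found in *Srsf7*, in 3 (8.82% against 4.04%), the YY1-type motif AAGATGG in 2 (5.88% against 6.48%) and the E2F-type motif TTTCGCG in 0 (against 0.844%). The stretches of *Tra2b* and *Hnrnpa3* hold none of the 6. The rest of the *Hnrnpa3* promoter holds a CCAAT box and an E-box. Matches may overlap each other. These shares describe letters and were not compared at equal GC content.

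The 36 genes together held 0.668% to 0.825% of the counts of a library. Their summed level was 7042 ± 7.94 CPM with *Dyrk1a* shRNA, 7885 ± 226 CPM with harmine and 7473 ± 230 CPM in the control group (SD, n = 2 each). Both *Dyrk1a* shRNA libraries (7037 and 7048 CPM) were below both control libraries (7310 and 7636 CPM), and both harmine libraries (8045 and 7725 CPM) were above them. Each of the 3 differences gave p = 0.333 in a two-sided exact permutation test, the smallest p that 2 against 2 libraries allow. Scaled by library totals alone, the sums were 6856 and 7303 CPM with *Dyrk1a* shRNA, 7844 and 7806 CPM with harmine and 6680 and 8251 CPM in the control group, so both treated groups then lay between the control libraries.

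**Figure D1:**
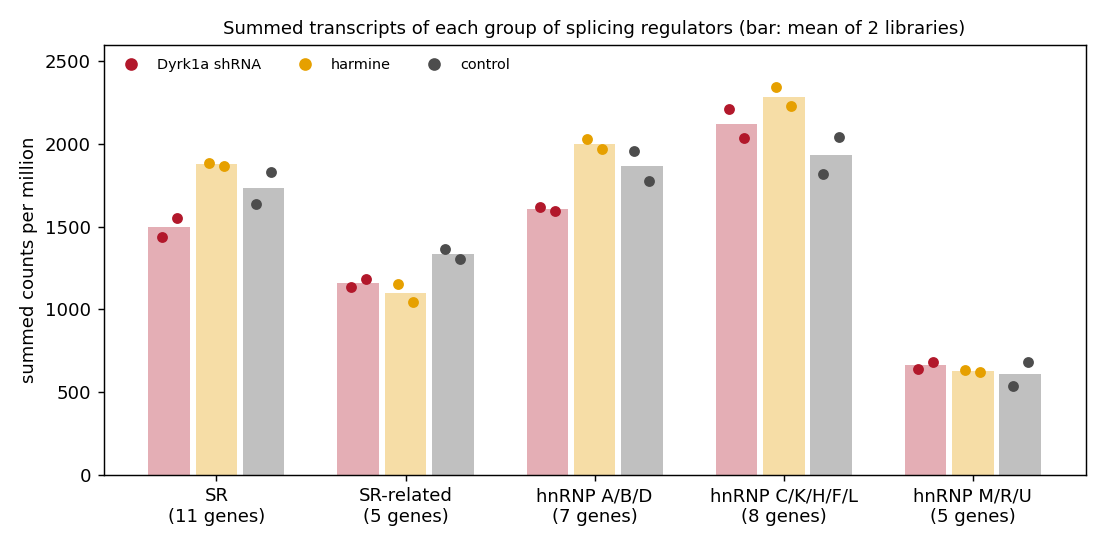
Summed TMM-scaled CPM (y axis) of 5 groups of splicing regulators in the *Dyrk1a* shRNA, harmine and control groups, with a point for each library and a bar for the mean of 2. SR proteins and the hnRNP A/B and D family were lowest with *Dyrk1a* shRNA, while SR-related coactivators were highest in the control group.

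By group, SR protein genes summed to 1435 and 1553 CPM with *Dyrk1a* shRNA, 1885 and 1867 CPM with harmine and 1636 and 1829 CPM in the control libraries. The hnRNP A/B and D family had the same order, with 1617 and 1594 CPM with *Dyrk1a* shRNA, 2028 and 1966 CPM with harmine and 1955 and 1777 CPM in the control libraries. SR-related coactivators (*Tra2a*, *Tra2b*, *Srrm1*, *Srrm2* and *Son*) reached 1135 and 1185 CPM with *Dyrk1a* shRNA, 1153 and 1041 CPM with harmine and 1366 and 1302 CPM in the control libraries, which were the highest. In these 3 groups the *Dyrk1a* shRNA libraries lay below both control libraries. The C, K, H/F and L families summed to 2210 and 2033 CPM with *Dyrk1a* shRNA, against 1818 and 2044 CPM in the control libraries. Harmine gave 2344 and 2228 CPM. The M, R and U families had 640 and 683 CPM with *Dyrk1a* shRNA, against 536 and 684 CPM in the control libraries. Harmine gave 634 and 622 CPM. For each of these the *Dyrk1a* shRNA and control libraries overlapped. Sums by group are given with TMM scaling only.

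Per kilobase of mean transcript length, *Hnrnpf*, which binds runs of G, was the most abundant of the 36, with 522 and 475 CPM per kb with *Dyrk1a* shRNA, 565 and 538 with harmine and 408 and 420 in the control libraries. *Hnrnpk*, a binder of C-rich RNA, followed with 501 and 442 CPM per kb with *Dyrk1a* shRNA, 526 and 465 with harmine and 362 and 474 in the control libraries. Next came *Hnrnpa2b1* (406 CPM per kb on average), *Hnrnpa1* (304), *Srrm2* (282) and *Srsf5* (204). The lowest tested genes were *Hnrpll* (25.9 CPM per kb), *Hnrnpul2* (25.2), *Tra2a* (23.1) and *Hnrnph3* (19.2). Of 35 pairs of neighbours in this order, 34 had ranges over the 6 libraries that overlap, so single ranks do not differ beyond the spread. The only gap was between *Hnrnph3* and *Srsf12*. With the longest transcript of each gene as its length, 5 of the 6 highest genes were shared, while *Srrm2* fell to rank 9 (76.9 CPM per kb). With 8 genes that have copies or overlapping genes left out, 4 of the 6 were shared.

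**Figure D2:**
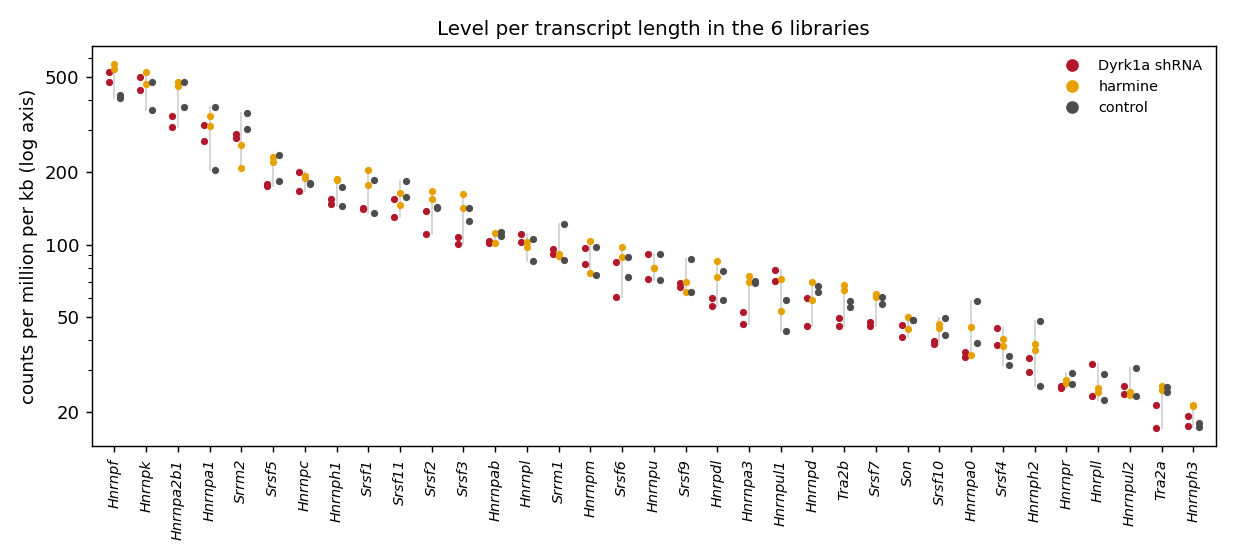
CPM per kb of mean transcript length (log axis) for the 35 tested genes in order of their mean, with 1 point per library coloured by group and a grey line for the range. Levels run from 488 for *Hnrnpf* to 19.2 for *Hnrnph3*, and the ranges of neighbours overlap.

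The comparison of *Dyrk1a* shRNA with harmine asks whether these genes stood at the same level under the vector aimed at *Dyrk1a* and under the drug. Neither DYRK1A protein nor its activity was measured in these libraries. Of the 35 genes 0 passed a Benjamini-Hochberg adjusted p of 0.05 over 10607 genes in the quasi-likelihood test of edgeR, where 0.00943% of all genes did, and 0 passed by the Wald test of DESeq2. At an unadjusted p under 0.05, 7 genes (20.0%) were lower with *Dyrk1a* shRNA and 0 higher, against 2.82% lower and 2.91% higher over all genes. The 7 are *Srsf3*, *Srsf1*, *Srsf7*, *Tra2b*, *Hnrnpa3*, *Hnrnpa2b1* and *Hnrpdl*. DESeq2 gave 4 of them (background 0.99% lower), *Srsf3*, *Tra2b*, *Hnrnpa3* and *Hnrnpa2b1*. The 35 genes had a median log2 fold change of -0.16, with 25 below 0, against -0.0011 for all genes tested. Libraries did not overlap for 17 genes in the lower direction (48.6%, background 20.8%) and for 1, *Srrm2*, in the higher (background 20.2%), or for 15 (background 19.0%) and 4 (background 21.5%) when scaled by library totals alone.

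*Srsf3*, the smallest SR protein, which also serves in export of mRNA, had 172 and 183 CPM with *Dyrk1a* shRNA, against 241 and 278 CPM with harmine, a log2 fold change of -0.55 (standard error 0.18, unadjusted p = 0.0073). The control libraries had 213 and 242 CPM, above both *Dyrk1a* shRNA libraries and overlapping with harmine. *Srsf7*, its closest relative in function, had 79.3 and 76.6 CPM with *Dyrk1a* shRNA, against 101 and 104 CPM with harmine (log2 fold change -0.39, standard error 0.18). The control libraries were at 101 and 94.5 CPM, close to harmine. In neither gene did the *Dyrk1a* shRNA libraries overlap with those of another group.

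*Srsf1*, the founding SR protein, had 245 and 248 CPM with *Dyrk1a* shRNA, against 355 and 308 CPM with harmine (log2 fold change -0.43, standard error 0.19). Its control libraries, at 235 and 326 CPM, spanned the *Dyrk1a* shRNA values. *Srsf2*, a component of nuclear speckles, had 136 and 170 CPM with *Dyrk1a* shRNA, against 191 and 206 CPM with harmine (log2 fold change -0.37, 95% interval -0.75 to 0.0095). The control libraries held 176 and 177 CPM. *Srsf5* and *Srsf6*, exon-binding activators, showed values of the same size. *Srsf5* had 284 and 279 CPM with *Dyrk1a* shRNA, 369 and 353 CPM with harmine and 293 and 378 CPM in the control libraries. *Srsf6* had 130 and 183 CPM with *Dyrk1a* shRNA, 190 and 210 CPM with harmine and 157 and 192 CPM in the control libraries. Both were at a log2 fold change of -0.36 between the treatments, with intervals that reach past 0.

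*Srsf4* stood on the other side, with 80.8 and 68.4 CPM with *Dyrk1a* shRNA, 68.0 and 72.3 CPM with harmine and 56.5 and 61.6 CPM in the control libraries. It was the 1 SR protein gene above 0 of 10 tested in the comparison of *Dyrk1a* shRNA with control. *Srsf9*, *Srsf10* and *Srsf11* had log2 fold changes of 0.028, -0.23 and -0.11 between *Dyrk1a* shRNA and harmine. Over the 10 tested SR protein genes, 8 were below 0 with a median of -0.36.

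Among the coactivators, *Tra2b*, which activates exons with GAA repeats, had 75.1 and 81.1 CPM with *Dyrk1a* shRNA, against 111 and 106 CPM with harmine (log2 fold change -0.48, standard error 0.18, unadjusted p = 0.016). The control libraries had 95.4 and 90.3 CPM, so the 3 groups did not overlap. Its paralog *Tra2a* had 42.9 and 53.4 CPM with *Dyrk1a* shRNA, 64.1 and 62.1 CPM with harmine and 63.4 and 60.8 CPM in the control libraries. Its *Dyrk1a* shRNA libraries were the lowest. *Srrm2*, a scaffold of nuclear speckles, went the other way between the treatments, with 674 and 696 CPM with *Dyrk1a* shRNA, against 630 and 505 CPM with harmine (log2 fold change 0.27, 95% interval -0.20 to 0.74). *Srrm1*, a coactivator that bridges SR proteins and the spliceosome, had 176 and 167 CPM with *Dyrk1a* shRNA, 167 and 164 CPM with harmine and 158 and 222 CPM in the control libraries. *Son*, the other speckle scaffold, had 167 and 187 CPM with *Dyrk1a* shRNA, 181 and 204 CPM with harmine and 197 and 197 CPM in the control libraries. For *Srrm1* and *Son* the treatments overlapped.

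All 7 tested genes of the hnRNP A/B and D family were below 0 between *Dyrk1a* shRNA and harmine, with a median of -0.27. *Hnrnpa2b1*, which acts in splicing and RNA transport, had 456 and 506 CPM with *Dyrk1a* shRNA, against 703 and 678 CPM with harmine (log2 fold change -0.52, standard error 0.22). Its control libraries were at 550 and 699 CPM. *Hnrpdl*, a relative of *Hnrnpd*, had 105 and 97.9 CPM with *Dyrk1a* shRNA, against 150 and 129 CPM with harmine (log2 fold change -0.46, standard error 0.19), and 104 and 136 CPM in the control libraries. *Hnrnpd* (AUF1), which binds AU-rich elements, had 71.3 and 93.2 CPM with *Dyrk1a* shRNA, 108 and 91.1 CPM with harmine and 97.9 and 105 CPM in the control libraries. For *Hnrnpd* the treatments overlapped. *Hnrnpab* differed least, at a log2 fold change of -0.055.

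*Hnrnpa3* had 90.04 and 80.5 CPM with *Dyrk1a* shRNA, against 128 and 120 CPM with harmine (log2 fold change -0.54, standard error 0.18, unadjusted p = 0.0073). Its count is uncertain, because the table also lists *Gm6793*, whose transcript is 98.3% identical to it over 1476 bases and took 4327 counts over the 6 libraries, against 1727 for *Hnrnpa3*. With both summed, the levels were 334 and 311 CPM with *Dyrk1a* shRNA, 475 and 374 CPM with harmine and 405 and 398 CPM in the control libraries. The log2 fold change was then -0.40 against harmine and -0.32 against control, and neither passed an unadjusted p of 0.05. *Hnrnpa1*, the classical repressor of exons, has a copy identical over 752 bases in the table (*Gm10052*). It had 607 and 519 CPM with *Dyrk1a* shRNA, 601 and 659 CPM with harmine and 717 and 394 CPM in the control libraries, or 969 and 856, 1048 and 883, and 804 and 806 CPM in the same groups when *Gm10052* and *Gm5643* were added. Exons of *Hnrnph3*, *Hnrnpk*, *Hnrnpu*, *Son* and *Srsf2* overlap with antisense genes and those of *Hnrnpm* with *March2* on the same strand. The study's methods describe second strand synthesis and tagmentation of the cDNA, and name no step that marks the strand. The counts of these genes are thus uncertain too.

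**Figure D3:**
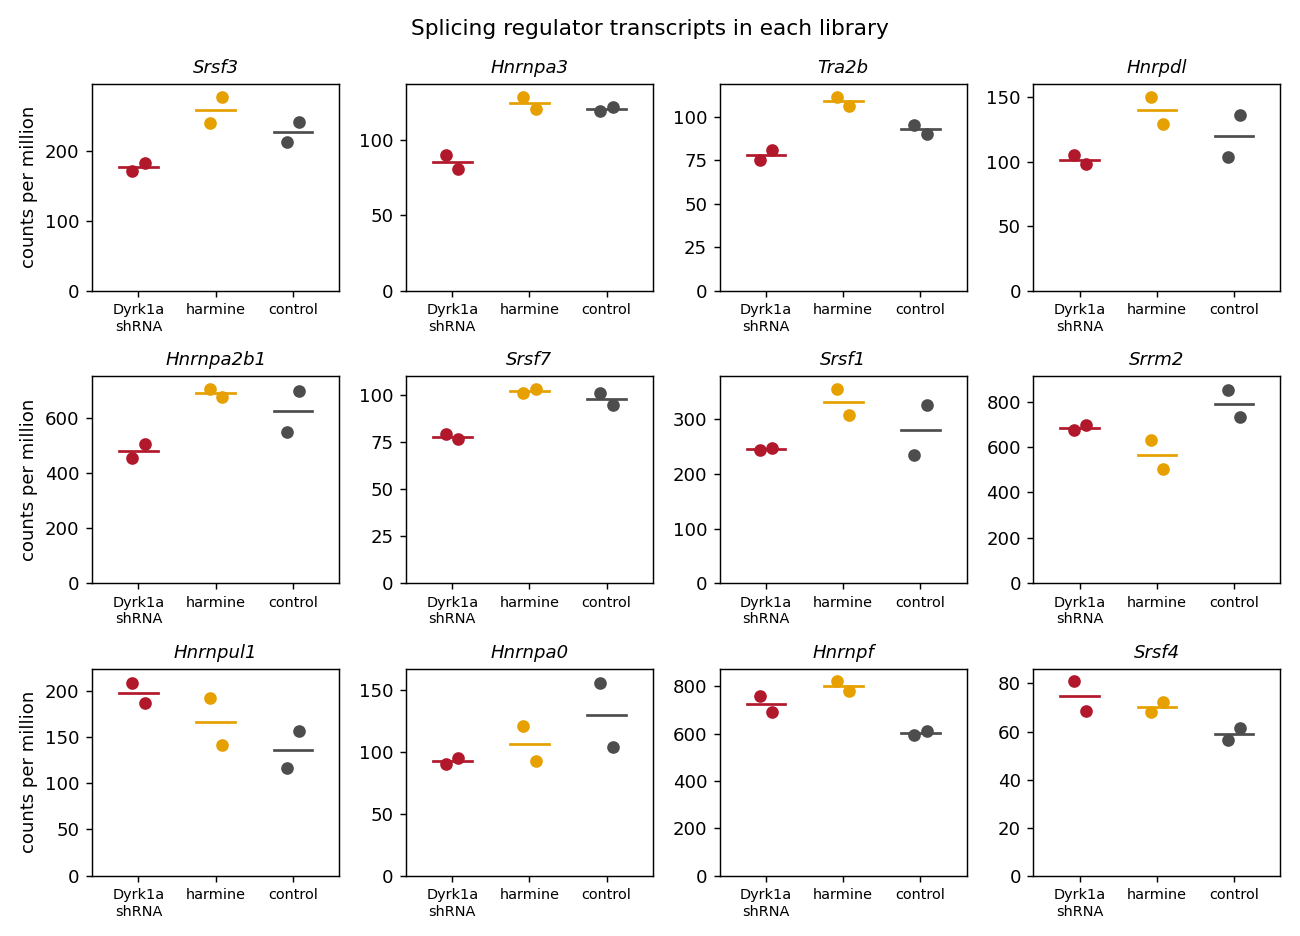
TMM-scaled CPM (y axis, from 0) of 12 splicing regulator genes in each library of the *Dyrk1a* shRNA, harmine and control groups, with a line for the mean of 2. The top row and the first 3 panels of the second show the 7 genes lower with *Dyrk1a* shRNA than with harmine at an unadjusted p under 0.05, while *Srrm2* was lowest with harmine.

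The hnRNPs of the C, K, H/F and L families lay nearer to 0, with a median of -0.11 and 6 of 8 below. *Hnrnph1*, another binder of G runs, had 218 and 208 CPM with *Dyrk1a* shRNA, 260 and 262 CPM with harmine and 202 and 244 CPM in the control libraries. *Hnrnph3*, at 28.1 to 110 counts in a library, had 23.8 and 26.2 CPM with *Dyrk1a* shRNA, 28.91 and 29.05 CPM with harmine and 24.5 and 23.6 CPM in the control libraries. *Hnrnpc* and *Hnrnph2* were at -0.057 and -0.25. Both regulators of CD45 exons were slightly above 0. *Hnrnpl* had 167 and 155 CPM with *Dyrk1a* shRNA, 155 and 148 CPM with harmine and 159 and 128 CPM in the control libraries. *Hnrpll* had 70.9 and 95.8 CPM with *Dyrk1a* shRNA, 76.3 and 73.1 CPM with harmine and 67.8 and 86.9 CPM in the control libraries. For *Hnrpll* the interval of the difference between the treatments was -0.26 to 0.59.

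The M, R and U families were around 0, with a median of 0.038 over 5 genes. *Hnrnpu*, a nuclear scaffold protein, had 138 and 175 CPM with *Dyrk1a* shRNA, 152 and 153 CPM with harmine and 136 and 175 CPM in the control libraries. *Hnrnpul2*, its relative, had 93.1 and 99.9 CPM with *Dyrk1a* shRNA, 94.8 and 92.4 CPM with harmine and 91.0 and 119 CPM in the control libraries. *Hnrnpm* and *Hnrnpr* were at 0.0024 and -0.082.

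The 7 genes depended on which libraries entered the fit. Without *Dyrk1a* shRNA replicate 1, *Hnrnpa3* alone was lower at an unadjusted p under 0.05 (2.86%, against 1.56% of all genes in the same fit), and without harmine replicate 1, *Srsf3* alone (2.86%, against 1.55%). Without harmine replicate 2 there were 2 (5.71%, against 1.78%), and without *Dyrk1a* shRNA replicate 2 there were 5, *Srsf2*, *Srsf3*, *Srsf6*, *Tra2a* and *Tra2b* (14.3%, against 2.28%). Without control replicate 1 or 2 there were 12 each (34.3%, against 5.24% and 5.01%). The share of all genes past this p thus moved with the fit as well. In the fit of the 4 treated libraries alone 12 genes were lower (background 4.99%), and 3 with library totals as the only scaling (background 1.94%). The log2 fold change of each of the 7 stayed below 0 in all 16 alternatives, from -0.64 to -0.44 for *Srsf3*.

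**Figure D4:**
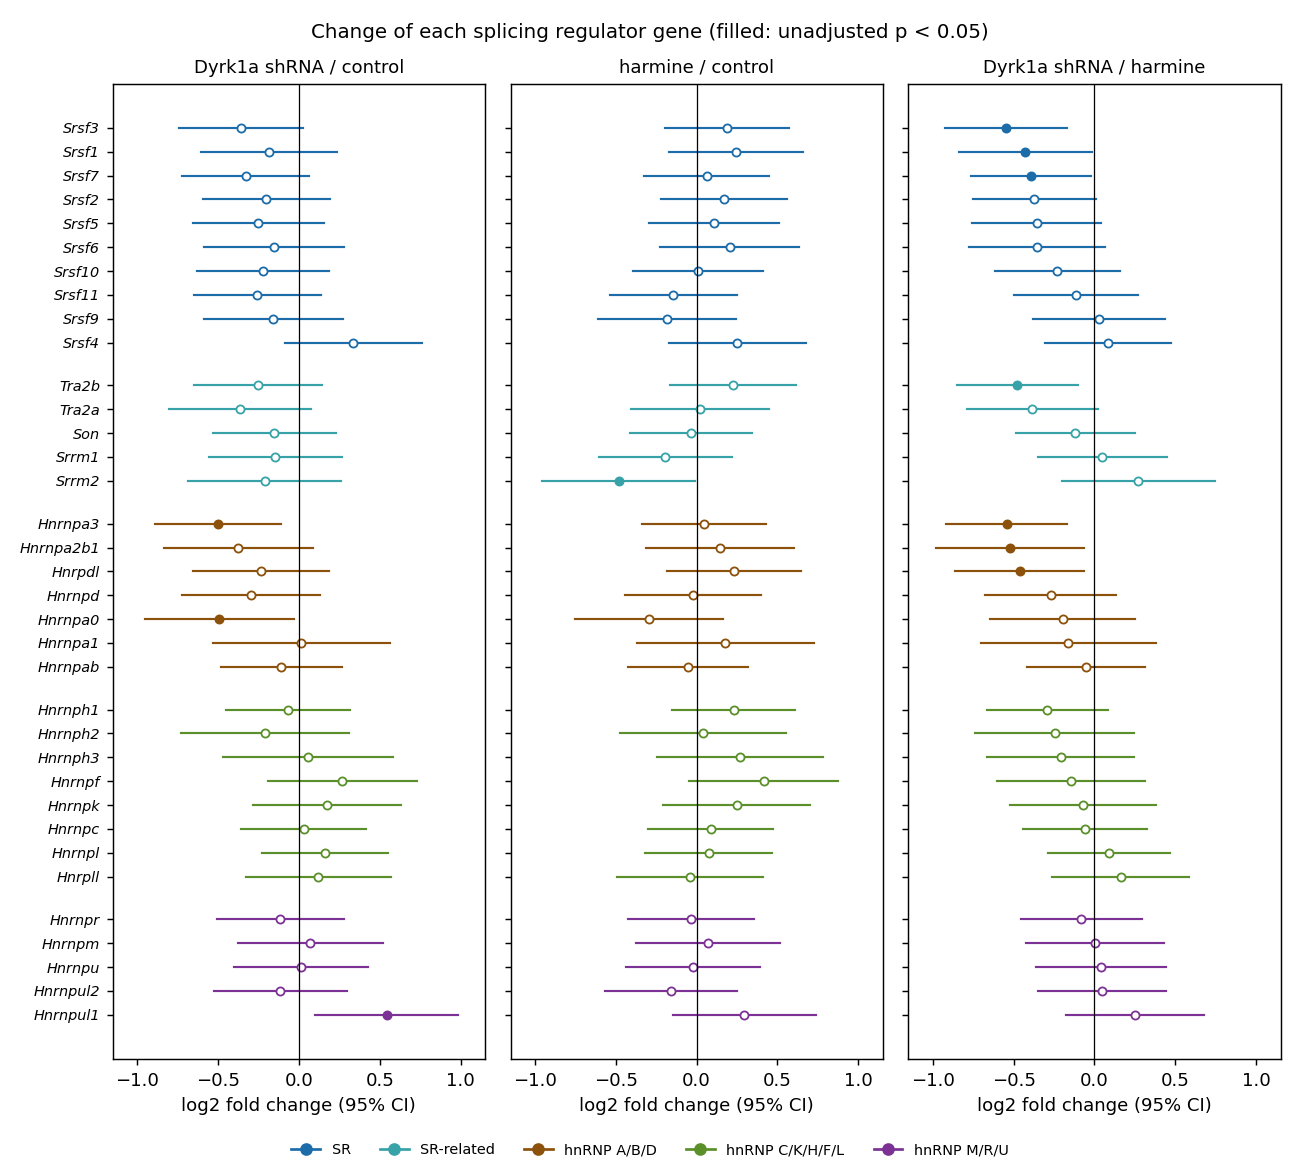
Log2 fold change (x axis) with its 95% confidence interval for the 35 tested genes, by group, in *Dyrk1a* shRNA against control, harmine against control and *Dyrk1a* shRNA against harmine. Filled points have an unadjusted p under 0.05, which 3, 1 and 7 genes reached in these comparisons, and no gene passed after adjustment.

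The fold changes of the *Dyrk1a* shRNA libraries went with the GC content of transcripts over the whole table. Across 10530 genes, which are not independent replicates, log2 fold change and GC content had a Spearman correlation of 0.39 for *Dyrk1a* shRNA against harmine, 0.32 for *Dyrk1a* shRNA against control and 0.0075 for harmine against control. The splicing regulators have GC-poor transcripts, with a median of 45.3% against 50.6%, and when all genes were divided into 10 bins of equal size by GC content, 17 of the 35 lay in the lowest 2. In these bins all genes had a median of -0.23 and -0.13 for *Dyrk1a* shRNA against harmine, and in the highest bin 0.17. Against the median of its own bin, the typical splicing regulator was at -0.065, with 21 of 35 below.

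**Figure D5:**
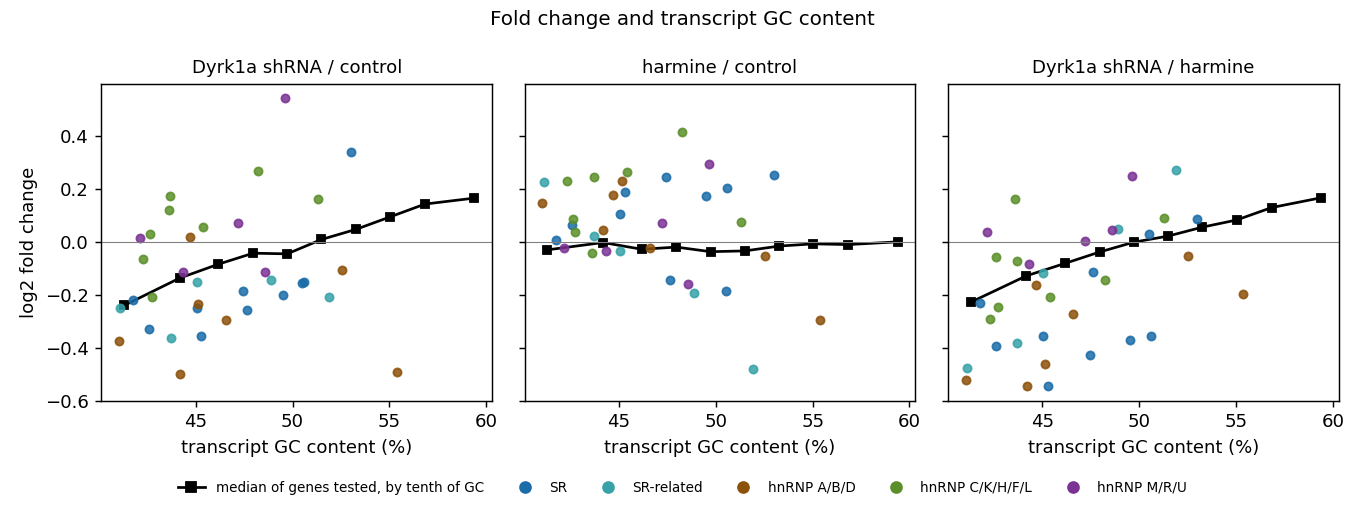
Log2 fold change (y axis) against transcript GC content in percent (x axis) for the 35 splicing regulator genes (points, by group) and the median of all genes tested in 10 bins of GC content (black squares) in 3 comparisons. The black line climbs with GC content in both comparisons of *Dyrk1a* shRNA, to 0.17 in the highest bin against harmine, and is flat for harmine against control.

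With trends of each library with transcript length and GC content removed, the median of the 35 genes for *Dyrk1a* shRNA against harmine was -0.071, and 4 genes were lower at an unadjusted p under 0.05 (11.4%, background 2.22%), namely *Srsf3*, *Srsf1*, *Srsf6* and *Hnrnpa3*. *Tra2b*, *Hnrnpa2b1*, *Srsf7* and *Hnrpdl* were not among them. The median of the SR protein genes was -0.22 with these trends removed and -0.36 without, with 8 of 10 below 0 in both. That of the hnRNP A/B and D family was -0.27 in both, with 7 of 7 below 0.

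The comparison of *Dyrk1a* shRNA with control sets the vector aimed at *Dyrk1a* against the scrambled one. By the quasi-likelihood test of edgeR 0 of 35 passed after Benjamini-Hochberg adjustment, against 0.0189% of all genes, and 0 by DESeq2. At an unadjusted p under 0.05, 2 were lower, *Hnrnpa3* and *Hnrnpa0* (5.71%, background 4.59%), and 1 higher, *Hnrnpul1* (2.86%, background 3.10%), which are shares near those of all genes. DESeq2 gave *Hnrnpa3* (background 2.47% lower) and *Hnrnpul1* (background 1.16% higher). The median log2 fold change was -0.15 with 24 of 35 below 0, against -0.013 for all genes. Libraries did not overlap for 16 genes in the lower direction (45.7%, background 16.9%) and 3 in the higher (8.57%, background 18.5%), or for 8 (22.9%, background 15.0%) and 4 (background 17.1%) when scaled by library totals alone. Of the 15 tested SR and SR-related genes 14 were below 0, all but *Srsf4*, with a median of -0.21, while the 20 hnRNP genes split evenly, with 10 below 0.

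*Hnrnpa0*, an hnRNP that binds AU-rich RNA, had 90.8 and 95.5 CPM with *Dyrk1a* shRNA, against 156 and 104 CPM in the control libraries (log2 fold change -0.49, standard error 0.22). The harmine libraries had 121 and 92.7 CPM. *Hnrnpul1*, which also takes part in repair of DNA breaks, had 208 and 187 CPM with *Dyrk1a* shRNA, against 116 and 156 CPM in the control libraries (log2 fold change 0.54, standard error 0.21, unadjusted p = 0.019). Harmine, at 192 and 141 CPM, overlapped with both. *Hnrnpa3*, with control libraries at 119 and 122 CPM, was at -0.50 (standard error 0.185). *Srsf3*, *Srsf7*, *Tra2a* and *Hnrnpa2b1* followed at -0.36, -0.33, -0.36 and -0.37, each with an interval that includes 0.

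These counts moved with the libraries in the fit. Without control replicate 1, 8 genes were lower at an unadjusted p under 0.05 (22.9%, against 4.28% of all genes in the same fit), among them *Srsf1*, *Srsf3* and *Srsf5*, and 1 was higher (background 4.47%). Without control replicate 2, 3 were lower (8.57%, background 10.0%) and 2 higher (5.71%, background 6.67%), and the median over the 35 genes was -0.036. In that fit the control group is 1 library, which for *Hnrnpa0* is the one with 156 CPM, without the one at 104 CPM. That group is then assumed to vary like the other groups. Over the fits that left out a library, the log2 fold change of *Hnrnpa0* ran from -0.74 to -0.16. Without *Dyrk1a* shRNA replicate 1 there was *Hnrnpa3* (background 1.98% lower), without replicate 2 *Hnrnpul1* (background 2.13% higher), and with trends of length and GC content removed the median was -0.061.

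Harmine against control, which compares cells with the same shRNA with and without the drug, showed the smallest differences. By the quasi-likelihood test of edgeR 0 of 35 passed after Benjamini-Hochberg adjustment, against 0.00943% of all genes, and 0 by DESeq2. At an unadjusted p under 0.05, *Srrm2* was lower (2.86%, background 3.07%) and 0 genes were higher (background 2.22%), while DESeq2 gave *Srrm2* (background 1.48% lower) and also *Hnrnpf* (background 0.811% higher). The median log2 fold change was 0.070 with 23 of 35 above 0, against -0.019 for all genes. Libraries did not overlap for 7 genes in the higher direction (20.0%, background 16.4%) and for 1 in the lower (2.86%, background 15.9%), or for 4 (background 14.5%) and 3 (background 14.3%) when scaled by library totals alone.

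*Srrm2* had 630 and 505 CPM with harmine, against 852 and 732 CPM in the control libraries (log2 fold change -0.48, standard error 0.22, unadjusted p = 0.046). *Hnrnpf* had 821 and 781 CPM with harmine, against 593 and 609 CPM in the control libraries (log2 fold change 0.41, 95% interval -0.045 to 0.87). With *Dyrk1a* shRNA, *Hnrnpf* was at 759 and 690 CPM, also above both control libraries. *Hnrnpk* had 593 and 525 CPM with harmine, against 409 and 534 CPM in the control libraries, and 565 and 498 CPM with *Dyrk1a* shRNA. The SR protein genes had a median of 0.14 with 8 of 10 above 0, and the C, K, H/F and L families 0.16 with 7 of 8 above 0. Without any 1 of the *Dyrk1a* shRNA or harmine libraries 0 genes had an unadjusted p under 0.05, where 3.23% to 4.22% of all genes did. Without control replicate 1 there were 4 (11.4%, background 9.04%). Without control replicate 2 there were 9, of which 7 were higher (20.0%, background 4.70%) and 2 lower (5.71%, background 8.51%). The median was 0.032 without control replicate 1 and 0.14 without control replicate 2.

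Replicates of these genes differed most in the control group. The median absolute difference between both replicates was 0.14 on the log2 scale with *Dyrk1a* shRNA, 0.091 with harmine and 0.27 in the control group, against 0.22, 0.21 and 0.37 over all genes tested and 0.17, 0.17 and 0.29 over the 5593 genes within the same range of mean CPM. The highest was 0.90 for *Hnrnph2* in the control libraries, at 65.9 and 123 CPM.

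Kinases and phosphatases of SR proteins and nuclear importers were taken as a list of 24 genes, of which 22 were tested. For *Dyrk1a* shRNA against control, 8 were above 0 and 14 below, with a median log2 fold change of -0.048. At an unadjusted p under 0.05, 3 of 22 were higher (background 3.10%) and 0 lower (background 4.59%). For harmine against control, 0 were higher (background 2.22%) or lower (background 3.07%) at that p. The 3 were *Akt2* and *Akt1*, kinases that can phosphorylate SR proteins, and *Tnpo1*, a nuclear importer. *Tnpo3*, the other importer in the list, was at a log2 fold change of -0.051 for *Dyrk1a* shRNA against control. *Akt2* had 387 and 339 CPM with *Dyrk1a* shRNA, against 230 and 272 CPM in the control libraries (log2 fold change 0.53). *Clk1*, whose own splicing is set by CLK activity, had 340 and 288 CPM with *Dyrk1a* shRNA, 448 and 365 CPM with harmine and 276 and 373 CPM in the control libraries. *Clk4* had 62.1 and 65.4 CPM with *Dyrk1a* shRNA, 81.4 and 77.9 CPM with harmine and 60.9 and 89.5 CPM in the control libraries. For both, the *Dyrk1a* shRNA and harmine libraries did not overlap with each other, while the control libraries overlapped with both.

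Of 40 tested genes of 43 other splicing regulators, 31 were below 0 between *Dyrk1a* shRNA and harmine with a median of -0.16, the same size as in the SR and hnRNP genes. At an unadjusted p under 0.05, 2 were lower (background 2.82%), *Luc7l2*, a U1 snRNP-associated factor, at 176 and 175 CPM with *Dyrk1a* shRNA, against 241 and 252 CPM with harmine (log2 fold change -0.49), and *Tia1*, which binds U-rich 5′ splice sites, at 87.7 and 80.2 CPM with *Dyrk1a* shRNA, against 101 and 119 CPM with harmine (log2 fold change -0.39). Against control, *Dyrk1a* shRNA gave 4 of 40 lower (background 4.59%), *Luc7l3*, *Luc7l2*, *Rbm25* and *Pnn*, at -0.52, -0.41, -0.42 and -0.41, and 0 higher. None of these passed after Benjamini-Hochberg adjustment in the quasi-likelihood test of edgeR, the lowest adjusted p being 0.612 against control and 0.827 against harmine.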

How the data were processed

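Alignment by the authors was with TopHat to mm10 (the submitters' notes name TopHat2 2.0.13), and RSEM gave the expected counts per gene that they deposited, without normalization. The RSEM and annotation versions are not given in the sources used here. After rounding, edgeR 4.0.16 (R 4.3.3) was used for TMM scaling, a filterByExpr minimum of 10 counts and a two-sided quasi-likelihood test, robust, with 3 group means over 6 libraries (Benjamini-Hochberg over 10607 genes). The 16 alternatives include the Wald test of DESeq2 1.42.0, other scalings and filters, thinning, natural splines of length and GC content with 4 degrees of freedom, and leaving out each library. Summing of near-identical copies (at least 95% identity over 200 bases) was chosen after seeing the data. The genes, lists and alternatives were chosen with earlier results of these data known. Genes with values in every library are up to 8 by smallest p in each comparison, the 6 highest and 4 lowest levels, and 17 genes named for their roles. Of each other list up to 4 were named by smallest p, with *Clk4* beside *Clk1* and *Tnpo3* beside *Tnpo1* after their values were seen. Lengths, GC content and transcript types come from GENCODE M21 (GRCm38, the assembly of mm10), in which all 36 symbols were matched. The test was also run on simulated data, the outcome of which is not given here. Depth was 1096345 to 3747648 counts. Replicates differed beyond sampling noise (chi-square per degree of freedom 3.58 to 10.4), so none were merged. Protein sequences were not used here.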

Additional observations from a re-analysis of the deposited data

How the results depend on the processing

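No splicing regulator passed after adjustment in any comparison in a fit that kept 2 libraries in both groups compared. Without a library of a compared group, the spread of the lone library is assumed from the other groups. Adjusted calls of such fits are not given. Counts at an unadjusted p under 0.05 moved more, as did those over all genes. For *Dyrk1a* shRNA against harmine, 7 genes became 3 with library totals alone, 4 with trends of length and GC content removed, 4 by DESeq2, 12 in the fit of the compared libraries alone, and 1 to 12 when libraries were left out. For *Dyrk1a* shRNA against control, 3 became 1 to 9 when libraries were left out, and the 19 genes whose libraries do not overlap became 12 with library totals alone. For harmine against control, 1 gene (2.86%, against 5.3% of all genes) became 2 with trends removed (5.71%, background 6.45%) and 2 by DESeq2 (5.71%, background 2.29%). In the fit of the compared libraries alone there were 0 (background 4.1%). No source used here says whether libraries with the same replicate number belong together. The difference between replicates 1 and 2 correlated over genes at 0.23 between *Dyrk1a* shRNA and harmine. It correlated at 0.019 between *Dyrk1a* shRNA and control and at 0.11 between harmine and control. Such correlations cannot decide the pairing, since each gene gives 1 difference per group. With the replicate number as a block, the counts were 10, 4 and 2, against 8.14%, 9.57% and 6.80% of all genes. The medians kept their sign in every alternative run. With 2 libraries a group, differences of the size seen here are near the reach of the intervals, and the control libraries are the shallowest.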

Other observations

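Of the 36 splicing regulator genes, 24 (66.7%) have at least 1 transcript annotated as a target of nonsense-mediated decay, against 30.9% of 9737 tested protein-coding genes, and 27 (75.0%) have 1 with a retained intron, against 62.5%. They also have more annotated transcripts, with a median of 8.5 against 5, and counts per gene pool all of them. *Hnrnpk* has the most, 34 transcripts, of which 3 are annotated as decay targets, and *Hnrnpd* has 4 of 11.

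Genes of nonsense-mediated decay and the exon junction complex, which degrade such transcripts, were set beside them. All 17 were tested, and for *Dyrk1a* shRNA against control 8 were below 0 with a median log2 fold change of 0.030. At an unadjusted p under 0.05, 3 were lower (against 4.59% of all genes) and 0 higher, while 0 of 17 passed after Benjamini-Hochberg adjustment in the quasi-likelihood test of edgeR. Between *Dyrk1a* shRNA and harmine, 0 of the 17 had an unadjusted p under 0.05 in the same test (background 2.82% lower and 2.91% higher). For harmine against control, 10 were below 0 with a median of -0.080 and a lowest value of -0.47. At that p 1 was lower (background 3.07%) and 0 higher (background 2.22%). The 3 genes lower with *Dyrk1a* shRNA than in control were *Rbm8a* and *Magoh*, of the exon junction complex, and the decay kinase gene *Smg1*. *Rbm8a* had 42.9 and 45.4 CPM with *Dyrk1a* shRNA, against 90.4 and 54.9 CPM in the control libraries (log2 fold change -0.73). *Magoh* had 16.5 and 19.5 CPM with *Dyrk1a* shRNA, against 38.3 and 24.5 CPM in the control libraries (log2 fold change -0.82). *Smg1* had 83.9 and 112 CPM with *Dyrk1a* shRNA, 103 and 107 CPM with harmine and 146 and 145 CPM in the control libraries, with log2 fold changes of -0.57 and -0.47 against control.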
